A study of Mus musculus with 9 samples.

Results

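The transcripts of 8 genes were followed across 3 inbred mouse strains. They were the keratins Krt15, Krt13, Krt4, Krt18, Krt8, Krt19 and Krt7, known from limbal, mucosal and simple epithelia, and Gpha2, a glycoprotein hormone subunit. The members are the probe sets whose single gene symbol in the platform annotation is one of these names, 13 probe sets of the 45037 that are not array controls, and they stand for 8 of the 18193 genes with a symbol of their own. Each gene is given by the probe set chosen by its highest mean over the 9 arrays, and the others serve as a check; all 8 of those probe sets, and 11 of the 13, passed a filter on low values, against 10956 of the 18193 genes. Strain differences of Krt15 and Gpha2 were known when the genes were listed, so their levels in SJL mice are a description and carry no p-value here. Intervals and ranks of both genes in the contrasts with SJL are likewise a description and no support. Which other results of these data were known when the genes were listed is not known here. The p-values of the other members in contrasts with SJL are therefore not independent support.

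The mice were SJL/J (SJL), which the labels give a thick cornea, C57BLKS/J (KS), which they give a thin cornea, and C57Bl/6J (B6), for which they give no thickness. All were adult males aged 4 months on the same diet and light cycle, and no treatment or engineered allele is named. The central cornea was cut out with a 2-mm punch, the left and right pieces of a mouse were pooled, and RNA was hybridised to 1 Affymetrix array per mouse, 3 mice a strain. Thickness and strain cannot be told apart in this design. A punch holds epithelium, stroma and endothelium together, so fewer cells of a type and less RNA per cell cannot be told apart either.

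Keratins form the intermediate filaments of epithelial cells, and each filament needs an acidic (type I) and a basic (type II) chain. The central cornea is known for Krt12 with Krt5, whereas Krt13 with Krt4 marks the upper layers of moist stratified epithelia such as conjunctiva and mouth, and Krt18 with Krt8 marks simple epithelia. Krt15 is a type I keratin of basal cells and of the limbus, the ring at the corneal edge where epithelial stem cells lie. Krt19, the shortest type I keratin, is found in conjunctiva, limbus and simple epithelia, and Krt7 is a type II keratin of glandular and simple epithelia. Gpha2 encodes the alpha subunit of thyrostimulin and is used as a mark of resting stem cells of the mouse limbus.

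In the mouse gene order Krt13, Krt15 and Krt19 follow one another on chromosome 11 with 0 protein-coding genes between them. Krt8 and Krt18 are likewise direct neighbours on chromosome 15, where 2 protein-coding genes lie between Krt4 and Krt8 and 20 between Krt7 and Krt4. Gpha2 is on chromosome 19. Sequences upstream of the start site were at hand for 5 of the 8 genes, from RefSeq on build GRCm38.p6, which are reference sequences and not those of the strains. The windows of Krt13 and Gpha2 are shown because both genes were lower in SJL than in the other strains; each is 250 bases ending just before the start, read in the direction of the gene, with capitals marking motif matches. Krt13 lies at chr11:100121567-100121816 on the minus strand and Gpha2 at chr19:6226151-6226400 on the plus strand.
Krt13: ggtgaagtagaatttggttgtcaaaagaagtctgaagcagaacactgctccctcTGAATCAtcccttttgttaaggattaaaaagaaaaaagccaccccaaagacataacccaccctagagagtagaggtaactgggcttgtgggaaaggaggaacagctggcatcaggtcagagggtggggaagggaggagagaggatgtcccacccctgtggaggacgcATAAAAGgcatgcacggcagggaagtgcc
Gpha2: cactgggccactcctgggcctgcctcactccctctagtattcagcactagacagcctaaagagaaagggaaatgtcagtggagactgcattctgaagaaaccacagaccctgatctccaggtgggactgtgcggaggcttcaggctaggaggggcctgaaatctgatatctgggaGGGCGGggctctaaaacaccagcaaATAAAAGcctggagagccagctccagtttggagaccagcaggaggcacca
The capitals of Krt13 are 1 match to TGANTCA, the AP-1 motif, 196 bases before the start, and the element ATAAAAG 29 bases before it. The capitals of Gpha2 are 1 GC box (GGGCGG, either strand) 75 bases before the start, followed by the element ATAAAAG 50 bases before it. Of 32851 such windows 6.75% held TGANTCA, 32.7% held the GC box on either strand and 3.01% held ATAAAAG in the direction of the gene, a motif added after the windows had been read. Motifs were counted where they lay wholly in the window, and no match overlapped another.

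Krt8 at chr15:102004343-102004592, minus strand, and Krt18 at chr15:102027966-102028215, plus strand, are shown because they encode the 2 partners of the simple epithelial filament, and Krt7 at chr15:101412153-101412402, plus strand, as the other simple epithelial keratin of that chromosome; all 3 had their lowest mean in B6.
Krt8: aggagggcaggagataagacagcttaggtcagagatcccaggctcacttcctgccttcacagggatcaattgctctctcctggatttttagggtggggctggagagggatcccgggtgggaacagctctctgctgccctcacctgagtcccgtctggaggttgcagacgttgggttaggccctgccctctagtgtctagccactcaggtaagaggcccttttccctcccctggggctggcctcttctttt
Krt18: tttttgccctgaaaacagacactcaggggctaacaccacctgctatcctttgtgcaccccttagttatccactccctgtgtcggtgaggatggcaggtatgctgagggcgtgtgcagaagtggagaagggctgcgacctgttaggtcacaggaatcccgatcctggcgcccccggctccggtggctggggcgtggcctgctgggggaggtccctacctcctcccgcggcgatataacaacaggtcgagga
Krt7: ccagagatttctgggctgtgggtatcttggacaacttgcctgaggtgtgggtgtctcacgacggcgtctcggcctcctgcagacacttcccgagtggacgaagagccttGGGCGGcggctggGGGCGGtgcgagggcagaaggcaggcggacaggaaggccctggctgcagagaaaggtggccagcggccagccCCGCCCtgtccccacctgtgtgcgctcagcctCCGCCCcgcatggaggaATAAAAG
The windows of Krt8 and Krt18 held none of the motifs searched, so no letters are in capitals. The capitals of Krt7 are 4 GC boxes on either strand, the nearest 24 bases before the start, and the element ATAAAAG 7 bases before it. None of the windows shown held TATAAA, which 7.59% of all windows held. A match is a description of letters and not of a factor's binding.

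Values are probe set intensities on a linear scale, and differences are log2(intensity + 10) of the first strain minus the second, fitted with limma over all 9 arrays and adjusted by the Benjamini-Hochberg method over all 22519 probe sets tested. A gene is called where the adjusted p is under 0.05. The added 10 understates the change of dim genes. Intensities of different probe sets are not comparable, so no gene's level is set against another's; means and sums over probe sets serve only to choose genes to name and to follow marker lists across arrays. No detection calls were used, so a value near the lower end of the scale, whose lowest value was 3.39, is an upper bound.

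**Figure D1:**
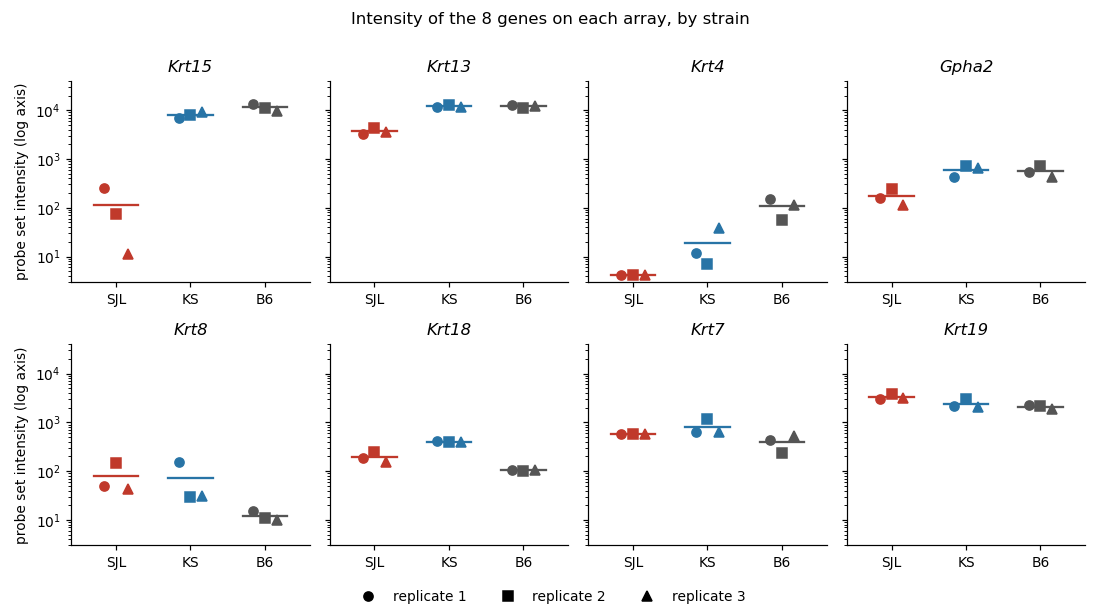
Intensity of the 8 genes on each array (log axis), 1 panel a gene, with SJL, KS and B6 from left to right; points are single mice and bars strain means. The 3 SJL points of Krt15 and of Krt13 lie below all KS and B6 points, and those of Krt18 lie between the other strains.

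Among the genes known from the corneal edge, Krt15 was abundant in the central punches of KS and B6 and low in those of SJL. Its intensity was 251, 73.5 and 11.2 in the 3 SJL mice, 7043, 7841 and 9353 in the KS mice and 13641, 11197 and 9813 in the B6 mice. The highest SJL mouse lay far below the lowest mouse of either other strain, while KS and B6 lay next to each other with no overlap. The means were 112 ± 124 in SJL, 8079 ± 1173 in KS and 11550 ± 1938 in B6 (SD, n = 3 each). SJL was lower than KS by a log2 difference of -6.70 (SE 0.74, 95% interval -8.39 to -5.02) and lower than B6 by -7.21 (SE 0.74). Both contrasts use the same SJL mice, and in each of them Krt15 had the 2nd lowest difference of 10956 genes.

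The SJL mice also differed among themselves in Krt15. The highest SJL value was 22.5 times the lowest, against 1.33 times in KS and 1.39 times in B6. The spread within strains, a residual SD of 1.06 on the log2 scale, was exceeded by 0.256% of the genes tested, where the median gene had 0.173. Leaving out SJL replicate 1 moved the difference from KS to -7.58 and leaving out SJL replicate 3 moved it to -5.77. Between KS and B6 the difference in Krt15 was -0.51 (95% interval -2.20 to 1.17, limma adjusted p = 0.761), so no difference between those strains was shown. That interval rests on a spread shared by the 3 strains, whose log2 SD was 1.815 in SJL, 0.206 in KS and 0.239 in B6. With only the 6 arrays of KS and B6 in the limma fit, the adjusted p was 0.151. Krt15 had a single probe set, and sequence differences between the strains under its probes were not tested.

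Gpha2, the other limbal gene, was also lowest in SJL, by a smaller margin. Its intensity was 158, 247 and 112 in SJL, 428, 721 and 654 in KS and 534, 713 and 422 in B6. The SJL mice lay below all others, and the KS and B6 mice overlapped. The means were 173 ± 68.8 in SJL, 601 ± 153 in KS and 557 ± 147 in B6 (SD, n = 3 each). The difference was -1.78 (SE 0.31, 95% interval -2.49 to -1.06) between SJL and KS and -1.67 between SJL and B6. Between KS and B6 it was 0.11 (95% interval -0.61 to 0.82, limma adjusted p = 0.894). Gpha2 too had a single probe set.

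Of the mucosal pair, Krt13 was lower in SJL and close to equal in the other strains. It was at 3216, 4307 and 3605 in SJL, 11901, 12531 and 11929 in KS and 13091, 11014 and 11999.8 in B6. The SJL values lay well below all others, and KS lay inside the range of B6. The means were 3709 ± 553 in SJL, 12120 ± 356 in KS and 12040 ± 1039 in B6 (SD, n = 3 each). The difference was -1.72 (SE 0.12) between SJL and KS (limma adjusted p = 3.57e-05) and -1.70 between SJL and B6 (3.61e-05). For KS against B6 it was 0.01 (95% interval -0.26 to 0.29, limma adjusted p = 0.97). Krt13 had the tightest replicates of the 8 genes, with a residual SD of 0.144 that 62.6% of genes exceeded. The other 2 Krt13 probe sets read 5.27 to 5.44 and 4.68 to 6.64 over the 9 arrays, near the lower end of the scale, and give no check; the mean of all 3 probe sets gave -0.57 between SJL and KS and -0.59 between SJL and B6, still called.

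Krt4, the type II partner, was lowest in SJL and highest in B6. It was at 4.09, 4.08 and 4.10 in SJL, 11.9, 6.90 and 38.1 in KS and 154, 56.8 and 112 in B6. The strains did not overlap, and the SJL mice were at the lower end of the scale, where a level is only a bound. The means were 4.09 ± 0.00702 in SJL, 19.0 ± 16.8 in KS and 108 ± 48.7 in B6 (SD, n = 3 each). Krt4 fell relative to B6 in both strains, with a log2 difference of -2.08 in KS (limma adjusted p = 0.0229) and -2.97 in SJL (0.00169), while SJL and KS were not called different (-0.89, 95% interval -1.84 to 0.06, adjusted p = 0.199). The SJL mean lay below the filter on low values, so Krt4 passed it through KS and B6. The calls of Krt4 are therefore a description and carry no weight. The size of its differences depends on the added constant. With 1 in place of 10 the differences from B6 were -2.66 in KS and -4.30 in SJL, and with 50 they were -1.17 and -1.49. Leaving out B6 replicate 1 or 3, or KS replicate 1 or 2, ended the KS against B6 call, with adjusted p of 0.0773, 0.0777, 0.0751 and 0.0885, as did fitting the 6 arrays alone (0.075) or no filter (0.109).

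The second Krt4 probe set gave the same order of strains. It read 5.61, 5.44 and 5.31 in SJL, 17.7, 10.05 and 19.0 in KS and 154, 34.2 and 109 in B6. Its differences were -0.71 between SJL and KS (limma adjusted p = 0.308), -1.92 between KS and B6 (0.033) and -2.62 between SJL and B6 (0.00326). B6 replicate 2 was the lowest B6 mouse on both probe sets. SJL was thus lowest for Krt13 and for Krt4 alike, and whether the genes differ in their contrast of KS with B6 was not tested.

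**Figure D2:**
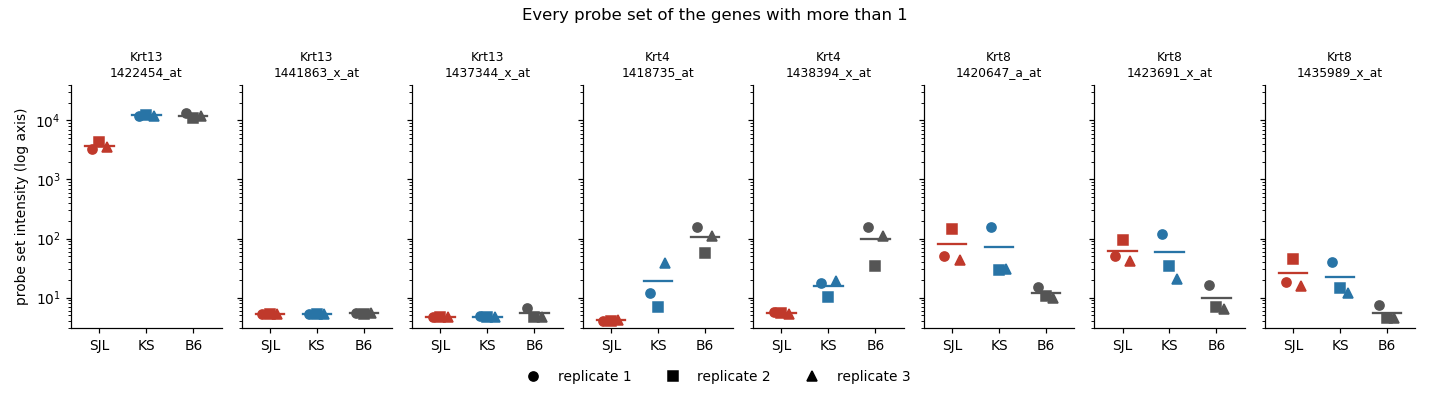
Intensity on each array (log axis) of every probe set of the genes that have more than 1, with SJL, KS and B6 from left to right and 1 point per mouse. The Krt4 probe sets share the order B6, KS, SJL from high to low, and 2 of the 3 Krt13 probe sets lie near the lower end on all arrays.

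Of the simple epithelial pair, Krt18 differed between every pair of strains, highest in KS and lowest in B6. It was at 189, 252 and 154 in SJL, 415, 390.5 and 399 in KS and 108, 101 and 104 in B6, with no overlap between any strains. The means were 198 ± 49.3 in SJL, 401 ± 12.5 in KS and 104 ± 3.24 in B6 (SD, n = 3 each). Krt18 fell by 1.01 on the log2 scale in SJL against KS (SE 0.15, limma adjusted p = 0.0027). Relative to B6 it rose by 1.85 in KS (0.000164), the 60th highest difference of 10956 genes, and by 0.84 in SJL (0.0065). Krt18 had a single probe set.

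Krt8, the chain that pairs with Krt18, was also lowest in B6, but single mice set its level. It was at 50.6, 145 and 43.7 in SJL, 155, 29.7 and 30.2 in KS and 15.003, 10.7 and 9.77 in B6. One SJL and one KS mouse stood at about the same high level, the remaining SJL and KS mice lay lower, and the B6 mice lay below all of them. The means were 79.9 ± 56.9 in SJL, 71.8 ± 72.4 in KS and 11.8 ± 2.78 in B6 (SD, n = 3 each). The differences were 0.31 between SJL and KS (95% interval -1.03 to 1.65, limma adjusted p = 0.781), 1.56 between KS and B6 (0.22 to 2.90, 0.192) and 1.88 between SJL and B6 (0.54 to 3.22, 0.0655), and none was called. The spread within strains, 0.844 on the log2 scale, was exceeded by 0.456% of genes.

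The same mice were high on all 3 Krt8 probe sets. The 2nd probe set read 51.2, 93.7 and 42.3 in SJL, 120, 33.7 and 21.0 in KS and 16.2, 6.94 and 6.51 in B6. The 3rd read 18.1, 44.3 and 15.5 in SJL, 40.1, 14.4 and 12.0 in KS and 7.48, 4.54 and 4.42 in B6. SJL replicate 2 and KS replicate 1 were the highest of their strains each time. SJL against B6 was called on the 2nd probe set (1.83, limma adjusted p = 0.0407) and not on the 3rd (1.14, 0.0699), while KS against B6 was called on neither (1.53, 0.14, and 0.96, 0.195). The B6 mean of the 3rd, 5.48, fell short of the filter intensity of 8.01, so it passed through SJL and KS. On the 2nd, B6 replicates 2 and 3 fell short of it. Tests against B6 on both are therefore a description and carry no weight. On the chosen probe set B6 mice read 9.77 to 15.003, so their level too may be an upper bound. On the chosen probe set the call in SJL against B6 appeared under 5 other settings, among them a pseudocount of 1 (0.0419) and leaving out KS replicate 1 (0.0158). Agr2, a goblet cell marker, had 94.8 in SJL replicate 2, against 32.5 and 29.5 in the other SJL mice. In KS replicate 1 Agr2 had 26.1, against 17.8 and 21.6 in the other KS mice. Fcgbp, the other goblet cell marker tested, had 375 in SJL replicate 2, against 363 and 511. In KS replicate 1 Fcgbp had 445, against 466.5 and 461.5. The part of these markers in the Krt8 values was not tested.

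Krt19 was abundant in every strain and highest in SJL. It was at 3061, 3761 and 3145 in SJL, 2214, 2964 and 2111 in KS and 2257, 2145 and 1847 in B6. The SJL mice lay above all others, and KS and B6 overlapped. The means were 3322 ± 382 in SJL, 2430 ± 465 in KS and 2083 ± 212 in B6 (SD, n = 3 each). Krt19 rose in SJL against B6 by 0.67 on the log2 scale (SE 0.15, limma adjusted p = 0.0192). The difference was 0.46 between SJL and KS (95% interval 0.11 to 0.81, adjusted p = 0.0815) and 0.21 between KS and B6 (0.503), so neighbours in the order SJL, KS, B6 were not called different. The SJL against B6 call was lost without B6 replicate 3 (0.0615), without SJL replicate 2 (0.0546) and with no filter (0.0624). Krt19 thus lay on the other side of SJL from Krt13 and Krt15, the genes next to it on the chromosome.

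Krt7 was called in no contrast. It was at 578, 582 and 582 in SJL, 637, 1185 and 640.2 in KS and 432, 237 and 514 in B6, with the SJL mice above all B6 mice and below all KS mice. The means were 581 ± 2.35 in SJL, 821 ± 315 in KS and 394 ± 143 in B6 (SD, n = 3 each). The differences were -0.43 between SJL and KS (95% interval -1.14 to 0.29, limma adjusted p = 0.417), 1.05 between KS and B6 (0.33 to 1.76, 0.106) and 0.62 between SJL and B6 (-0.10 to 1.33, 0.232). Krt7 shared the strain order of Krt18, with KS highest and B6 lowest, but KS replicate 2 and B6 replicate 2 stood apart from their strains. Krt19 and Krt7 had a single probe set each.

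**Figure D3:**
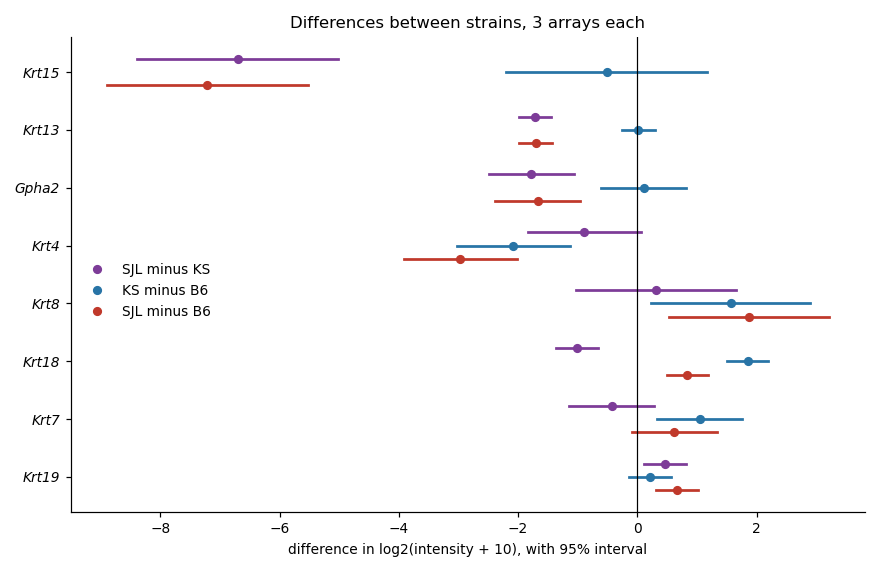
Log2 difference of each gene in the 3 contrasts (SJL minus KS, KS minus B6, SJL minus B6) with 95% intervals from the limma fit; 0 is no difference. Krt15 has the most negative differences in both SJL contrasts (-6.70 and -7.21) and the widest intervals, and Krt13 has the narrowest.

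In SJL against KS, limma called 4 of the 8 genes, 0 higher and 4 lower (Krt15, Krt13, Krt18 and Gpha2), where 14.9% of all genes tested were called, 6.8% higher and 8.08% lower; since the low SJL levels of Krt15 and Gpha2 were known, nothing is read from this count. The median difference of the 8 was -0.95, against 0.02 over all genes. In KS against B6, 2 of the 8 were called, Krt18 higher and Krt4 lower, where 6.27% of all genes were called, 3.4% higher and 2.87% lower, and the median was 0.16, against 0.02 over all genes. In SJL against B6, 6 of the 8 were called, Krt18 and Krt19 higher and Krt15, Krt13, Krt4 and Gpha2 lower, where 16.1% were called, 8.39% higher and 7.68% lower, and the median was -0.53, against 0.02 over all genes. This contrast shares its SJL mice with the first, so its count is not a separate result. Krt4, counted here and in KS against B6, passed the filter on low values through KS and B6, so nothing is read from these counts. A moderated F-test for any strain difference called 6 of the 8, all but Krt8 (adjusted p = 0.0962) and Krt7 (0.102), where 19.4% of all genes were called. Krt15 and Gpha2 are among the 6, so nothing is read from this count either. The F-test call of Krt19 (adjusted p = 0.0352) was lost in most fits with 1 mouse left out. An exact permutation test of 3 mice against 3 cannot give a p below 0.1, so single genes were tested through the limma model only.

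The 8 genes also differed in how far mice of a strain spread. Krt15, Krt8 and Krt4 (residual SD 0.593, exceeded by 1.66% of genes) were among the most variable genes tested. Krt7 and Gpha2 had 0.441 each, exceeded by 4.72% and 4.71% of genes. Krt18 and Krt19 had 0.198 each and were near the middle of all genes, exceeded by 40.2% and 40%.

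Of 41 other keratin genes on the array 13 were tested, and 1 rose and 1 fell in SJL against KS, a share near the 14.9% of all genes. Krt1, a keratin of cornified epidermis, rose by 0.73 (limma adjusted p = 0.00165), and Krt75, a hair follicle keratin, fell by 1.56 (0.0145). Krt75 had mean intensities of 6.38 in SJL mice, 38.7 in KS mice and 21.9 in B6 mice. Its SJL mean lay below the filter on low values, so the call of Krt75 carries no weight. In KS against B6, where 6.27% of all genes were called, limma called 0 of the 13, with 2 at an unadjusted p under 0.05. In SJL against B6, where 16.1% were called, 3 rose and 0 fell. Krt23, a type I keratin, rose by 2.30 (0.0064), Krt1 by 0.81 (0.000919) and Krt14, the basal keratin of stratified epithelia, by 0.37 (0.0456). The medians of the 13 were 0.00, 0.07 and 0.01 in these contrasts.

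**Figure D4:**
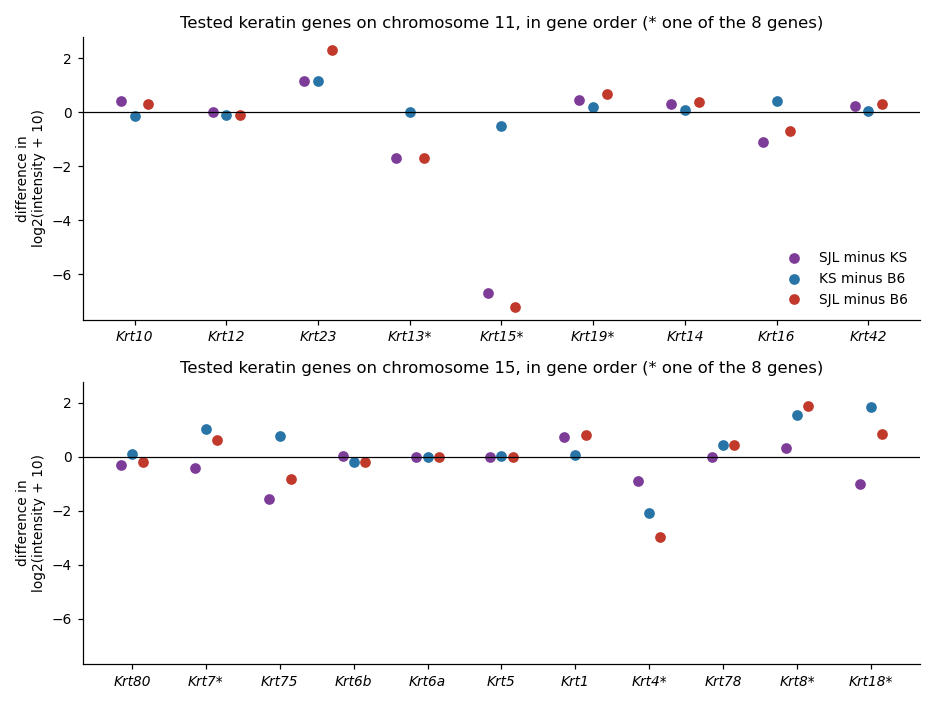
Log2 difference in the 3 contrasts for each tested keratin, in gene order along the type I cluster (chromosome 11) and the type II cluster (chromosome 15); the x axis is order, not distance. Krt13 and Krt15 lie below 0 in both SJL contrasts and their neighbour Krt19 above it, and Krt4 lies below 0 beside Krt8 and Krt18 in SJL against B6.

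The genes around Gpha2 were not called lower. Of the 10 tested genes nearest to Gpha2, 5 a side, limma called none between SJL and KS (0 genes), 0 between KS and B6 and 1 between SJL and B6. That gene was Arl2, a small GTPase, which rose by 0.63 (adjusted p = 0.0331), the side opposite to Gpha2. Around Krt15 the 10 nearest tested genes, which include Krt13 and Krt19, held 0 higher and 1 lower call in SJL against KS, the lower one being Krt13. Between SJL and B6 they held 3 higher (Krt23, Krt19 and Krt14) and 1 lower (Krt13), and between KS and B6 0 of either direction. Krt13 and Krt19 are members, and Krt23 and Krt14 are among the other keratins above, so these calls are not new. Of all genes tested, 14.9% were called between SJL and KS, 6.27% between KS and B6 and 16.1% between SJL and B6. Nothing is read from the counts around Krt15.

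Genes that work with keratins are read against the same shares of all genes, 14.9% in SJL against KS, 6.27% in KS against B6 and 16.1% between SJL and B6. Of 15 anchors of keratin filaments at desmosomes and hemidesmosomes 14 were tested. Dsg2, a desmosomal cadherin, fell in SJL against KS (-0.50, limma adjusted p = 0.0285) and rose in KS against B6 (0.72, 0.0118). Pkp2, a desmosomal plaque protein, fell in SJL against B6 (-1.25, 0.0245). No other anchor was called, and the median anchor differed by 0.03 between SJL and KS, by -0.11 between KS and B6 and by -0.11 between SJL and B6. Of 10 keratin-binding and turnover genes 9 were tested, and Tchp, whose product trichoplein binds Krt8 and Krt18, rose in SJL against KS (0.68, 0.0303). In the other contrasts limma called 0 of these 9, with 0 at an unadjusted p under 0.05. Those with the highest mean intensity, the crosslinking enzyme Tgm2 and the adaptor Ywhaz, differed by 0.04 and -0.01 between KS and B6.

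Of 14 other markers of the limbus 10 were tested, and 2 rose and 1 fell in SJL against KS, where 14.9% of all genes were called. Sox9, a transcription factor of progenitor cells, rose by 0.82 (limma adjusted p = 0.0162) and Igfbp5, a binding protein of insulin-like growth factors, by 0.68 (0.036), while Ifitm3, an interferon-induced membrane protein, fell by 0.61 (0.046). In KS against B6, where 6.27% were called, 0 rose and 2 fell, Ifitm3 (-0.84, 0.0251) and Atf3, a stress-induced transcription factor. In SJL against B6, where 16.1% were called, 1 rose (Sox9, 0.86, 0.0124) and 2 fell, Ifitm3 (-1.45, 0.000682) and again Atf3. Atf3 passed the filter on low values through B6 alone, so its calls carry no weight; its mean intensity was 6.64 in SJL mice, 7.94 in KS mice and 57.1 in B6 mice. Trp63, the p63 factor of basal epithelial cells, had mean intensities of 11970 in SJL mice, 12370 in KS mice and 13020 in B6 mice and was called in no contrast.

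Of 9 genes of non-keratinised mucosa 5 were tested. Limma called 1 of them in each contrast with SJL, where 14.9% of all genes were called against KS and 16.1% against B6. Muc4, a membrane mucin of the ocular surface, had an intensity of 1956 ± 145 in SJL mice, 11920 ± 1380 in KS mice and 13290 ± 906 in B6 mice (SD, n = 3 each). Muc4 fell in SJL, with a log2 difference of -2.60 from KS (limma adjusted p = 1.64e-06) and -2.76 from B6 (1.25e-06), so that SJL stood apart as it did for Krt13. In KS against B6 limma called 0 of the 5, with 0 at an unadjusted p under 0.05. Mal and Emp1, membrane proteins with the highest mean intensity in the list, differed by -0.13 and -0.19 there. In SJL Mal and Emp1 differed by 0.05 and 0.04 from KS and by -0.08 and -0.15 from B6, and neither was called. Of 16 epithelial transcription factors 15 were tested. Limma called 0 in SJL against KS, with 3 at an unadjusted p under 0.05, and 0 in KS against B6, with 0. In SJL against B6 Grhl3, a factor of epithelial barrier formation, fell by 0.53 (0.0477). Pax6 and Klf4, master factors of corneal epithelium, differed by -0.02 and 0.06 between SJL and KS.

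Markers of corneal epithelium were abundant in every punch. The summed intensity of 5 corneal epithelial markers (Krt12, Krt5, Aldh3a1, Tkt, Pax6) was 114545 to 120263 in SJL, 115442 to 118378 in KS and 118278 to 121323 in B6, and 0 of 5 were called by limma in any contrast, with 0 at an unadjusted p under 0.05. Of 8 goblet cell markers, which would point to conjunctiva, 6 read below 16 on every array, Muc5ac and Spdef among them. Their sum was 422 to 567 in SJL, 498 to 510 in KS and 522 to 616 in B6. The photoreceptor sum was 33 to 34 in SJL, 38, 38 and 4990 in KS and 36 to 42 in B6, so KS replicate 3 stood apart, and the same mouse was the highest in a sum of pigment cell markers (593). Without it 4, 2 and 6 members were called in the 3 contrasts and 5 by the F-test, which no longer called Krt19. Over all probe sets, calls became fewer without this mouse. The number between SJL and KS fell from 3489 to 2430, and that between KS and B6 from 1286 to 823. For SJL with B6 it fell from 3605 to 2997. Nothing is read from the member counts without this mouse. Pigment cell markers summed to 169 to 203 in SJL, 294 to 593 in KS and 383 to 455 in B6. Vessel and blood markers summed to 68 to 87 in SJL, 107 to 131 in KS and 119 to 224 in B6, and 4 markers of corneal stroma to 30362 to 32007 in SJL, 34028 to 36151 in KS and 32180 to 33808 in B6. These 3 sums were lower in SJL. Of 11 pigment cell markers 6 read below 16 on every array, as did 4 of 5 vessel and blood markers. Best1, a pigment epithelium marker, fell in SJL against KS (-1.18, limma adjusted p = 0.0037) and B6 (-1.01, 0.00733). Kdr, a vessel marker, fell in SJL against B6 (-1.07, 0.0161). Of the stroma markers limma called only Dcn, lower in SJL against KS (-0.375, 0.0168). Lum had its highest mean in SJL (5010, against 4880 in KS and 4684 in B6). Corneal endothelium markers, 4 on the array, summed to 7870 to 9653 in SJL, 9702 to 10916 in KS and 9093 to 10868 in B6. Lens markers moved the other way, with sums of 58 to 125 in SJL, 45 to 47 in KS and 45 to 48 in B6; 5 of 6 read below 16 on every array, and Bfsp1, a lens filament protein, rose in SJL against KS (1.18, limma adjusted p = 0.0243). The part of these sums in the members' results was not tested. B6 replicate 3 had the highest 3'/5' difference of the GAPDH control probe sets, 1.55 on the log2 scale against 0.73 to 1.17 on the other arrays.

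**Figure D5:**
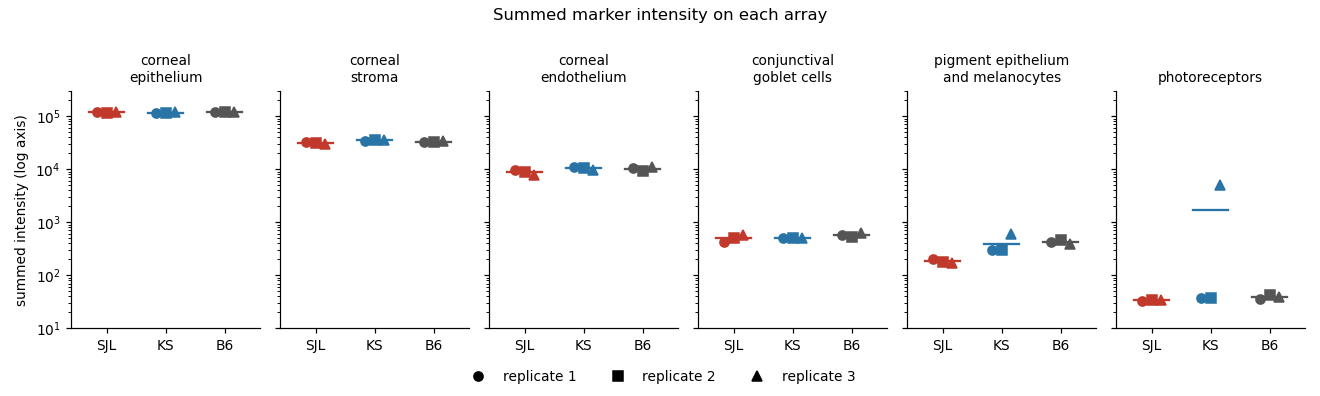
Summed intensity per array (log axis) of the marker lists of corneal and other cell types, with SJL, KS and B6 from left to right and 1 point per mouse. Corneal epithelium sums are alike in all strains (114545 to 121323), and the photoreceptor sum is high in KS replicate 3 alone (4990).

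For each gene called by the F-test, the tested genes whose log2 values lay closest over the 9 arrays after centring on their own mean were looked up, with the root mean square of the gap as the measure. The pattern of Krt15, itself spread by 3.40 about its mean, was most like those of Trim12a (0.905), Trim12c (0.986) and B3galt6 (1.06). Trim12a had mean intensities of 4.24 in SJL mice, 997 in KS mice and 1450 in B6 mice. Krt13 (0.81) was closest to Rhou (0.12), E130218I03Rik (0.139) and Shox2 (0.179), and Gpha2 (0.89) to Pttg1 (0.246), Shox2 (0.282) and E130218I03Rik (0.304), so Shox2 and E130218I03Rik stood near both. Krt4 (1.33) was closest to Kbtbd11 (0.48), C920006O11Rik (0.514) and Gm6958 (0.569). Krt18 (0.77) was closest to Fgd2 (0.178), Padi1 (0.247) and Hspb8 (0.258). Padi1 had mean intensities of 26.8 in SJL mice, 61.6 in KS mice and 5.84 in B6 mice. Krt19 (0.32) was closest to Wdr70 (0.09), Tfb2m (0.091) and Lrrc42 (0.112). These likenesses rest on 9 arrays of 3 strains and are a description.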

How the data were processed

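Total RNA of central cornea was labelled with biotin by the standard Affymetrix protocol and hybridised to 9 arrays, per the labels. The deposited values are linear intensities, summarised by the authors to 1 value per probe set; how they corrected the background, summarised and scaled was not given in the sources used here. Between 11% and 14.9% of an array's intensities recurred exactly on another array, and upper quartiles lay between 380.4 and 397.6. Probe sets were named from the platform annotation (34945 with 1 symbol, 932 with several, 9160 with none).

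Log2(intensity + 10) was fitted with limma 3.58.1 in R 4.3.3, with 1 mean per strain, 6 residual degrees of freedom (median 8.41 after moderation) and two-sided tests. Probe sets with a mean log2 value below the median of all (4.17, an intensity of 8.01) were left out, and 22519 remained. With arrays there is no read depth, and 3 mice a strain limit the precision. Replicates are separate mice, per the labels.

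The members and gene lists were chosen with earlier results of these data known. Named are all members, up to 3 called genes per list and contrast and the 3 genes most like each member called by the F-test. Where none was called, up to 2 genes of the highest mean were chosen, and not all of these are named. Trp63, Krt12, Agr2, Fcgbp, Lum and genes beside a member were added after their values were seen. Alternatives were the pseudocount, filter, scaling, replicate block, arrays fitted, variance prior, array weights, probe sets per gene and leaving out each mouse.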

Additional observations from a re-analysis of the deposited data

How the results depend on the processing

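Over the 24 member differences and 20 alternative settings, 444 values kept their direction and their side of the threshold, 9 lost a call, 8 gained one and 10 turned sign. Lost calls were those of Krt4 in KS against B6 and Krt19 in SJL against B6; gained ones were Krt8 in SJL against B6 (0.0158 to 0.0478) and Krt19 in SJL against KS (0.0256 to 0.0471). The sign turned only for differences near 0 that limma called in no setting. For Krt13 in KS against B6 it was -0.012 with median centring, -0.001 with array weights, -0.018 with the mean of all probe sets and -0.049 to 0.076 with 1 mouse left out. For Gpha2 in KS against B6 it was -0.073 without B6 replicate 3 and -0.04 without KS replicate 2, in a range up to 0.33. For Krt8 in SJL against KS it was -0.034 without KS replicate 2, -0.025 without KS replicate 3 and -0.17 without SJL replicate 2, in a range up to 0.995. With the mean of all probe sets Krt13 differed by -0.57 between SJL and KS and -0.59 between SJL and B6, because 2 of its 3 probe sets sit at the lower end. The members called in KS against B6 numbered 1 with no filter, 1 with the 6 arrays alone and 0 with a filter at the 70th percentile, which left Krt18, Krt4 and Krt8 untested and 1 of the other 5 at an unadjusted p under 0.05 in limma. With 1 mouse left out, 4 to 5 members were called in SJL against KS, 1 to 2 in KS against B6, 5 to 7 in SJL against B6 and 5 to 6 by the F-test. Of these fits only the one without KS replicate 2 kept the F-test call of Krt19, which was also lost with no filter. Without KS replicate 1 the F-test called Krt8 and not Krt19. Probe sets called were 3489 between SJL and KS, 1286 between KS and B6 and 3605 between SJL and B6. In the same order they became 2101, 742 and 2156 with the filter at the 70th percentile and 7121, 2139 and 5546 with array weights, and 838 in KS against B6 with no filter. With 1 mouse left out they ranged over 2337 to 3643, 745 to 1452 and 2523 to 3674. Same-numbered mice deviated together at correlations of -0.266 to 0.263, with those of replicate 1 all positive (0.07, 0.216 and 0.263). Not every pair passed 0.1, so the main fit used no pairing. Whether some same-numbered mice shared a processing step was not tested. With the replicate block 5, 2 and 6 members were called in these contrasts (Krt19 gained, 0.0471) and 3315, 1124 and 3509 probe sets. With 3 mice a strain, differences in the variable genes Krt8 and Krt7 have wide intervals.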
